A study of Mus musculus with 18 samples.

Results

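The genes for the cytosolic ribosomal proteins were followed over 18 Illumina MouseWG-6 bead arrays of cultured mouse skeletal muscle myoblasts. Members were the genes whose symbol in the platform annotation is Rpl or Rps followed by a digit, or Rplp0, Rplp1, Rplp2 or Rpsa, without pseudogene symbols and without the S6 kinases. The annotation used here pairs 65 such genes with 96 probes. A probe was kept where its detection p-value, which sets its signal against the negative control probes of the same array, was below 0.05 on at least 3 arrays. The kept probe with the highest mean stood for its gene. This gave 62 members among 11921 genes measured. Of these, 36 encode large-subunit and 25 encode small-subunit proteins. The remaining member, Rps19bp1, encodes a binding partner of Rps19 that is no ribosomal protein and was taken in by its symbol alone. The members hold 6 paralogs of other ribosomal protein genes (Rpl3l, Rpl22l1, Rpl36al, Rpl7l1, Rps4l and Rps27l) and 1 retroposed copy, Rps23rg1. A further 3 genes had no kept probe. Rpl17 and Rpl39l were detected on 0 arrays and Rps23 on 1. Ribosomal protein genes with other symbols, among them Fau and Rack1, were not analysed here.

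All cells carried loxP-flanked Gata4 alleles (strain Gata4tm1.1Sad/J), the Wt cells included. KO cells received Cre recombinase from an adenovirus, OE cells received GATA4 from a retrovirus, and Wt cells received nuclear β-galactosidase from an adenovirus, so OE differs from Wt in the kind of virus as well as in its cargo. Day 3 arrays came from cells held for 3 days in differentiation medium (DMEM with serum), and day 0 arrays from infected cells in growth medium (Ham's F10 with serum and bFGF). The 6 labelled groups are KO day 3, OE day 3, Wt day 3, KO day 0, OE day 0 and Wt day 0, with 3 arrays each. Whether the replicates of a group were separate cultures or animals is not in the labels, nor is the age of the mice. P-values therefore cover only the spread between these samples, part of which may be technical.

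A cytosolic ribosome holds a large subunit, which forms peptide bonds, and a small subunit, which decodes the messenger RNA, and nearly every protein of either is present in a single copy. Many of the messages start with a C followed by an unbroken run of pyrimidines, the 5′ terminal oligopyrimidine (TOP) tract, through which mTOR signalling and the RNA-binding protein Larp1 control their translation together. A few members have tissue-specific paralogs. Rpl3l replaces Rpl3 in part of the ribosomes of adult skeletal and heart muscle, and Rpl22l1 can take the place of Rpl22. Myoblasts that differentiate leave the cell cycle and fuse into myotubes that express muscle creatine kinase (Ckm).

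An array detected 16974 to 19966 of its 45281 probes and had a median signal of 96.6 to 110.4 intensity units. Gata4 itself was near background, with log2 intensities of 4.24 to 5.32 where the lowest value of any probe was 4.13, and was detected on 5 arrays, so it did not check the labels. Myod1, which marks the myogenic lineage, was at 10.10 to 11.15 and detected on 18 arrays, whereas Pax7, the marker of satellite cells, was detected on 2. The arrays did not follow their labels. Ckm was at 10.87 to 11.39 on 9 arrays, of which 6 are labelled day 3 (KO replicates 1, 2 and 3, OE replicate 1, Wt replicates 1 and 3) and 3 are labelled day 0 (KO replicate 1, OE replicate 2, Wt replicate 1), and was at most 8.05 on the other 9. These 9 arrays are called the Ckm-high arrays below. They are a division seen in the data, not groups of the study, and no test was made on it. The labels were used as given. Whether titles were exchanged between arrays was not tested, and every difference between labelled groups below holds only for the arrays as labelled. Top2a, a topoisomerase of dividing cells, ran the other way, at 5.13 to 5.75 on the Ckm-high arrays and 7.82 to 8.82 on the others. Over all genes, the 18 arrays fell into 6 sets of 3 mutually closest arrays, each set with more than 1 label. Of the 5 fibroblast markers fixed for this work 4 were measured, and the sum of their linear intensities lay at 603 to 802 in KO day 3, 253 to 1037 in OE day 3, 467 to 838 in Wt day 3, 466 to 623 in KO day 0, 759 to 889 in OE day 0 and 222 to 721 in Wt day 0. Among them Col1a1 was at 6.13 to 7.47 on the Ckm-high arrays and at most 5.61 on the others, and Dcn at 7.69 to 8.79 and at most 7.59. Pdgfra (4.61 to 5.19 on the Ckm-high arrays, 4.69 to 5.87 on the others) and Thy1 (6.50 to 8.87 and 6.24 to 9.63) overlapped. Of the 4 endothelial markers 3 were measured, and their sum was 73 to 79 in KO day 3, 71 to 227 in OE day 3, 71 to 165 in Wt day 3, 76 to 85 in KO day 0, 205 to 222 in OE day 0 and 74 to 210 in Wt day 0. Differences in this sum follow Tek, the angiopoietin receptor, which was at 7.31, 7.40 and 7.40 in OE day 0, against 7.40, 5.32 and 4.81 in Wt day 0. Pecam1 (4.28 to 5.22, detected on 4 arrays) and Kdr (4.30 to 4.98, detected on 5) were near background. Of the leukocyte markers, Csf1r (4.27 to 5.55) and Cd14 (4.26 to 5.71) were each detected on 10 arrays. Their sum was 45 to 84 in OE day 3 and lay within that span in every other group. Lum, Ptprc, Plin1 and Fabp4 were detected on 0 arrays, Adgre1 and Cdh5 on 1 each, and Adipoq on 2. The part of other cells in the values below was not tested, and in bulk RNA fewer cells of a type and less RNA per cell cannot be told apart.

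The bases around the transcription start are shown for a few members because the TOP tract is what these messages are best known for. The search for it also gave different results for the paralogs that stood out below. RefSeq (GRCm38.p6) gives a start for 52 of the 62 members. A TOP tract was searched on the gene's own strand as a C followed by at least 4 further C or T bases, beginning within 5 bases of a start. It was found at 24 of the 52 members, or 46.2%, and at 21.1% of 26973 other genes. Each line below runs 5′ to 3′ over 30 bases, from 10 before the start to 20 from the start on, and capitals mark the tract. Rps6, the small-subunit protein phosphorylated by S6 kinases, Rpl28, Rpl12 and Rpl35 have one, as has the paralog Rpl22l1. None was found in the window of Rpl22. A tract further than 5 bases from the annotated start would be missed, so a gene without a match may still have one.
Rps6, chr4:86857348-86857377, minus strand: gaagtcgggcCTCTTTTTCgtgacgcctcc
Rpl28, chr7:4792955-4792984, plus strand: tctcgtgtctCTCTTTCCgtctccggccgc
Rpl12, chr2:32961702-32961731, plus strand: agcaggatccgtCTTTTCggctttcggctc
Rpl35, chr2:39005112-39005141, minus strand: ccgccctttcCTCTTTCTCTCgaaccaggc
Rpl22l1, chr3:28805498-28805527, plus strand: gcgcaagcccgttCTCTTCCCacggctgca
Rpl22, chr4:152324426-152324455, plus strand: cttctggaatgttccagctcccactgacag

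No tract was found at the first RefSeq start of Rpl3l. Its upstream bases are shown because they hold CAGCTG, a palindrome that fits the E-box motif bound by Myod1 and Myog. The site lies 20 bases before the start and is in capitals in the 90 bases below, of which the last 20 begin at the start.
Rpl3l, chr17:24727756-24727845, plus strand: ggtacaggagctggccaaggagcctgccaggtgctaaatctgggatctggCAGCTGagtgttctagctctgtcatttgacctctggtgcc
Of the 52 members 3 held CAGCTG in the 300 bases from 250 before to 50 after a start (5.77%), against 18.3% of the other genes. CCGGAAG, searched on both strands and part of the motif of ETS-family factors, was held by 42.3% of members and 9.87% of other genes, and AAGATGGC, the core of the YY1 motif, by 7.69% and 3.18%. A match describes the letters and is not a binding site.

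Most members gave some of the brightest probes of the arrays. Of the 100 genes with the highest mean log2 intensity 31 were members, 41 members had a mean of 12 or more, and 11 had a mean under 8. The highest means were those of Rplp1 (14.72), an acidic protein of the stalk that recruits elongation factors, Rpl41 (14.49), Rps29 (14.48), Rpl38 (14.47) and Rps12 (14.43). Probes differ in how well they bind, so these values order probes, not the amounts of the messages. Quantile normalisation gives the brightest probe of every array the same log2 value, 14.78. Rplp1 stood at that ceiling on 9 arrays and Rps29 on 2, and no higher value could be recorded there. At the other end, Rps20 (4.48), Rps23rg1 (4.50), Rpsa (4.70), Rpl14 (4.77) and Rpl6 (4.92) had the lowest means and were detected on 3, 4, 8, 12 and 10 arrays. Their values lie close to background and say little about these messages.

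**Figure D1:**
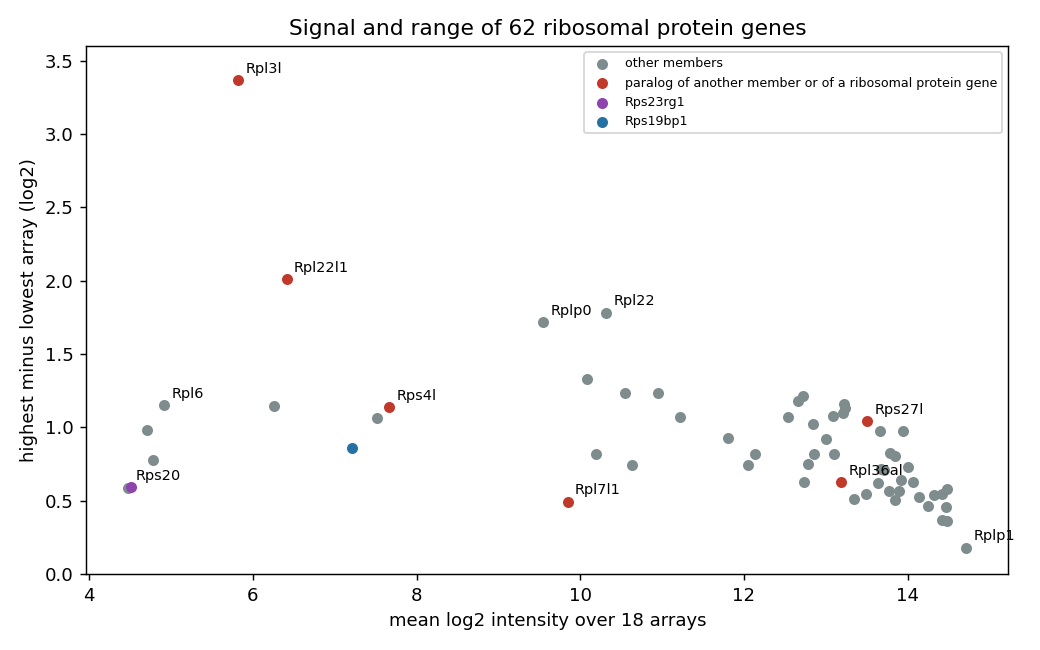
Mean log2 intensity over the 18 arrays (x axis) and highest minus lowest array on the log2 scale (y axis) for each of the 62 members, with paralogs, Rps23rg1 and Rps19bp1 coloured. Rpl3l has a range of 3.37 at a mean of 5.82, Rpl22l1 follows with 2.01, and Rplp1 at the top of the scale has 0.18.

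Over the 18 arrays the members varied little beside other genes. The median SD of a member was 0.26 and its median range 0.82, against 0.33 and 1.16 over all 11921 genes. Among genes with a mean of 12 or more, the median SD was 0.22 for the 41 members and 0.26 for the other 252. A range above 1, a 2-fold spread, was found for 21 members (33.9%) and for 62.9% of all genes. It was found for 34.9% of the 252 other genes with a mean of 12 or more. That share is not matched to the 33.9%, which covers members of every level. At a mean of 12 or more, the median range was 0.72 for the 41 members and 0.88 for the 252 other genes. The narrowest were Rplp1 (0.18), Rpl41 (0.36), Rps2 (0.37), which lies where the messenger RNA enters, Rpl38 (0.46), Rpl37 (0.47), Rpl7l1 (0.49), Rpl27a (0.51) and Rpl27 (0.51). Of these, Rplp1, Rpl41, Rps2, Rpl38 and Rpl37 have means of 14.25 or more, near the top of the scale, where the ceiling compresses differences. Rpl27a (mean 13.85) and Rpl27 (13.35) lie further below it. Rpl7l1, a paralog of Rpl7 that acts in ribosome assembly, has a mean of 9.85. The widest were Rpl3l (3.37), Rpl22l1 (2.01), Rpl22 (1.78), Rplp0 (1.72), Rps3a1 (1.33), Rpl13a (1.24), Rpl29 (1.23) and Rpl34 (1.21).

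**Figure D2:**
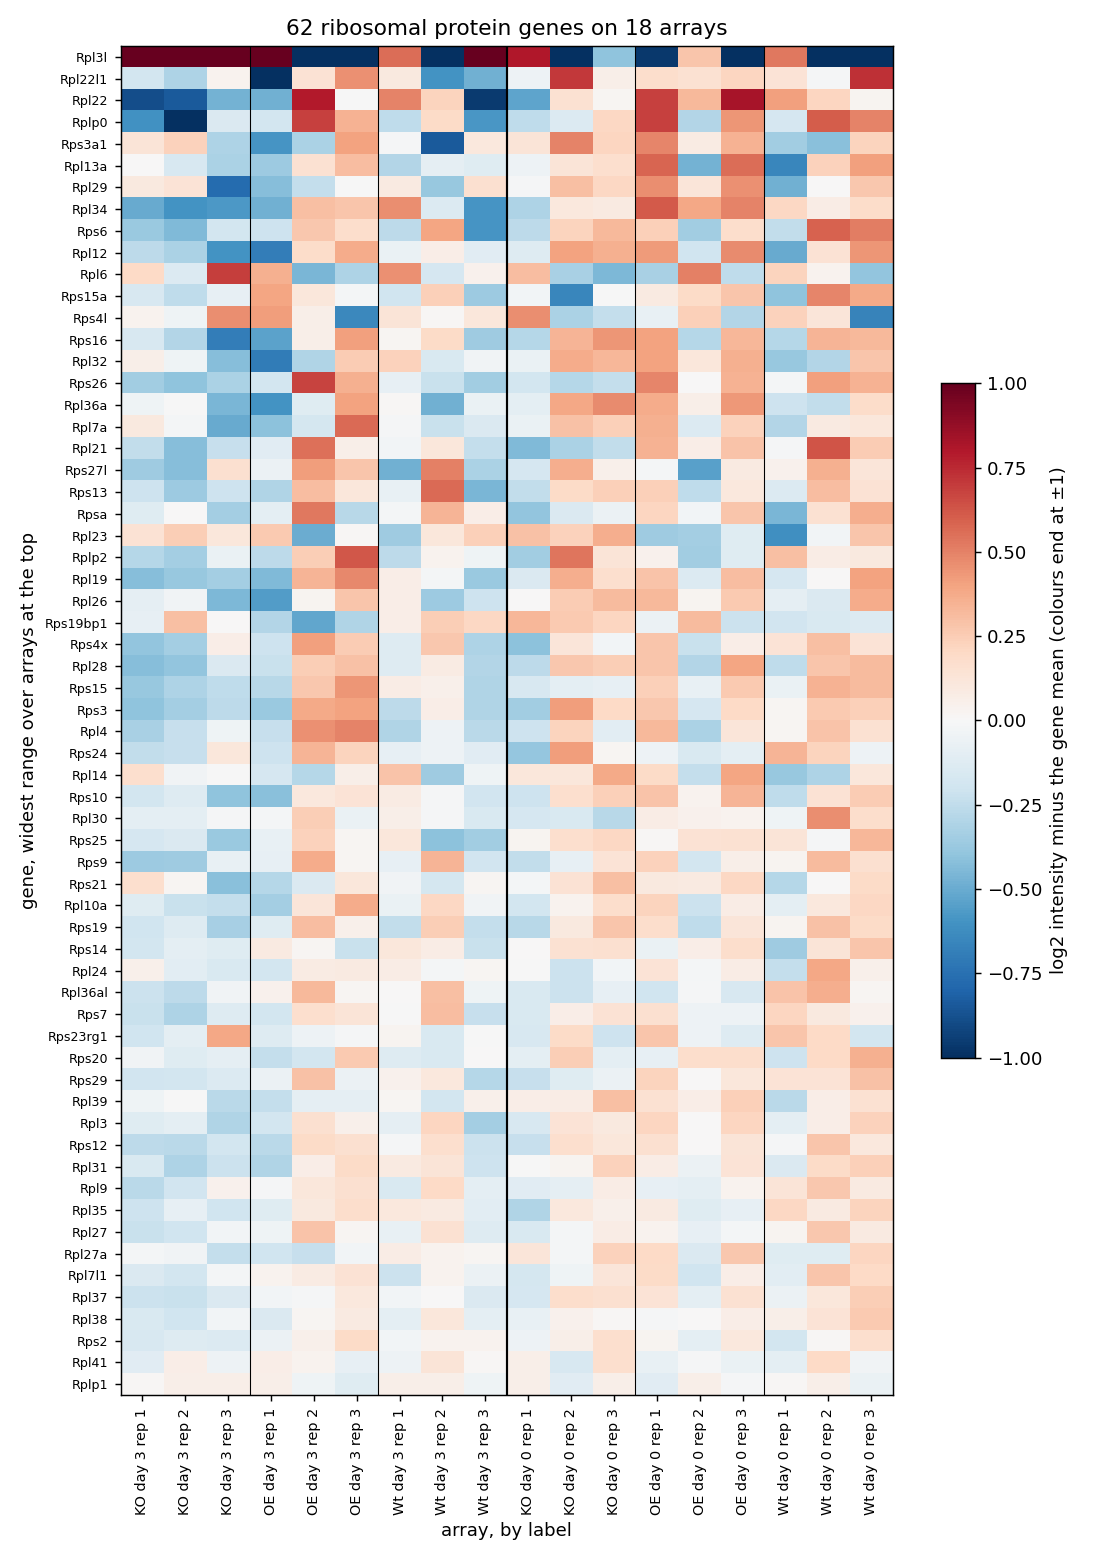
Log2 intensity minus the gene's mean over 18 arrays, with 1 row per member, widest range at the top, and 1 column per array grouped by label (KO, OE and Wt at day 3, then at day 0). Colours end at 1 on either side of the mean. The Rpl3l row runs from 4.35 to 7.72 and its high arrays cross the labels, while the KO day 3 columns are mostly blue.

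Rpl3l, the muscle paralog of the Rpl3 protein near the peptidyl transferase centre, lies on chromosome 17 from 24727826 to 24736143 (GRCm38.p6) and was read by 1 probe, ILMN_2649810. It was detected on 14 arrays. Its log2 intensities were 7.37, 7.43 and 6.82 in KO day 3, 7.21, 4.35 and 4.76 in OE day 3, and 6.38, 4.80 and 7.72 in Wt day 3. In the day 0 groups they were 6.62, 4.71 and 5.41 in KO, 4.86, 6.10 and 4.65 in OE, and 6.34, 4.72 and 4.46 in Wt. All KO day 3 arrays were high and lay above all KO day 0 arrays, while each other group held both high and low arrays, and the other groups compared overlapped. The group means were 7.21 ± 0.33 (SD, n = 3) in KO day 3, 5.44 ± 1.54 in OE day 3, 6.30 ± 1.46 in Wt day 3, 5.58 ± 0.96 in KO day 0, 5.20 ± 0.78 in OE day 0 and 5.18 ± 1.02 in Wt day 0. Day 3 minus day 0 was 1.63 ± 0.81 (SE) in KO, with a limma adjusted p of 0.488. In Wt this was 1.12 ± 0.81 (limma adjusted p = 0.90) and in OE 0.24 ± 0.81 (limma adjusted p = 1). KO minus Wt was 0.91 ± 0.81 at day 3 and 0.40 ± 0.81 at day 0, and OE minus Wt was -0.86 ± 0.81 and 0.02 ± 0.81, with adjusted p of 0.915 to 1. These differences rest on single arrays. Leaving out 1 array at a time, day 3 minus day 0 ran from 1.19 to 2.14 in KO, from 0.41 (without Wt day 3 replicate 3) to 1.87 (without Wt day 3 replicate 2) in Wt, and from -0.64 (without OE day 3 replicate 1) to 0.79 (without OE day 3 replicate 2) in OE. KO minus Wt at day 3 ran from 0.16 (Wt day 3 replicate 2 left out) to 1.62 (replicate 3 of that group left out), and at day 0 from -0.11 (KO day 0 replicate 1 left out) to 0.99 (Wt day 0 replicate 1 left out). OE minus Wt ran from -1.74 (OE day 3 replicate 1 left out) to -0.15 (Wt day 3 replicate 3 left out) at day 3, and from -0.42 (OE day 0 replicate 2 left out) to 0.61 (Wt day 0 replicate 1 left out) at day 0.

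Read against Ckm rather than against the labels, the Rpl3l values parted without overlap. All 9 Ckm-high arrays had Rpl3l at 6.10 to 7.72, and the other 9 had 4.35 to 5.41. Rpl3, the parent gene (chromosome 15, 80077781 to 80083406), took the opposite order within a narrow span, at 13.56 to 13.90 on the Ckm-high arrays and 13.94 to 14.12 on the others. The Rpl3 and Rpl3l values come from different probes, so their ratio is not a ratio of messages. Rpl3l was the only member of the 62 that lay entirely above on the Ckm-high arrays, where 10.2% of all genes did. The size of its range rests on the background correction, since the probe never exceeded 292 intensity units. It was 3.37 with the main method, 2.04 with a correction fitted to the signal alone, 1.57 with none, and 1.46 in the authors' processed values. The Ckm-high arrays remained above all others under each of these.

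**Figure D3:**
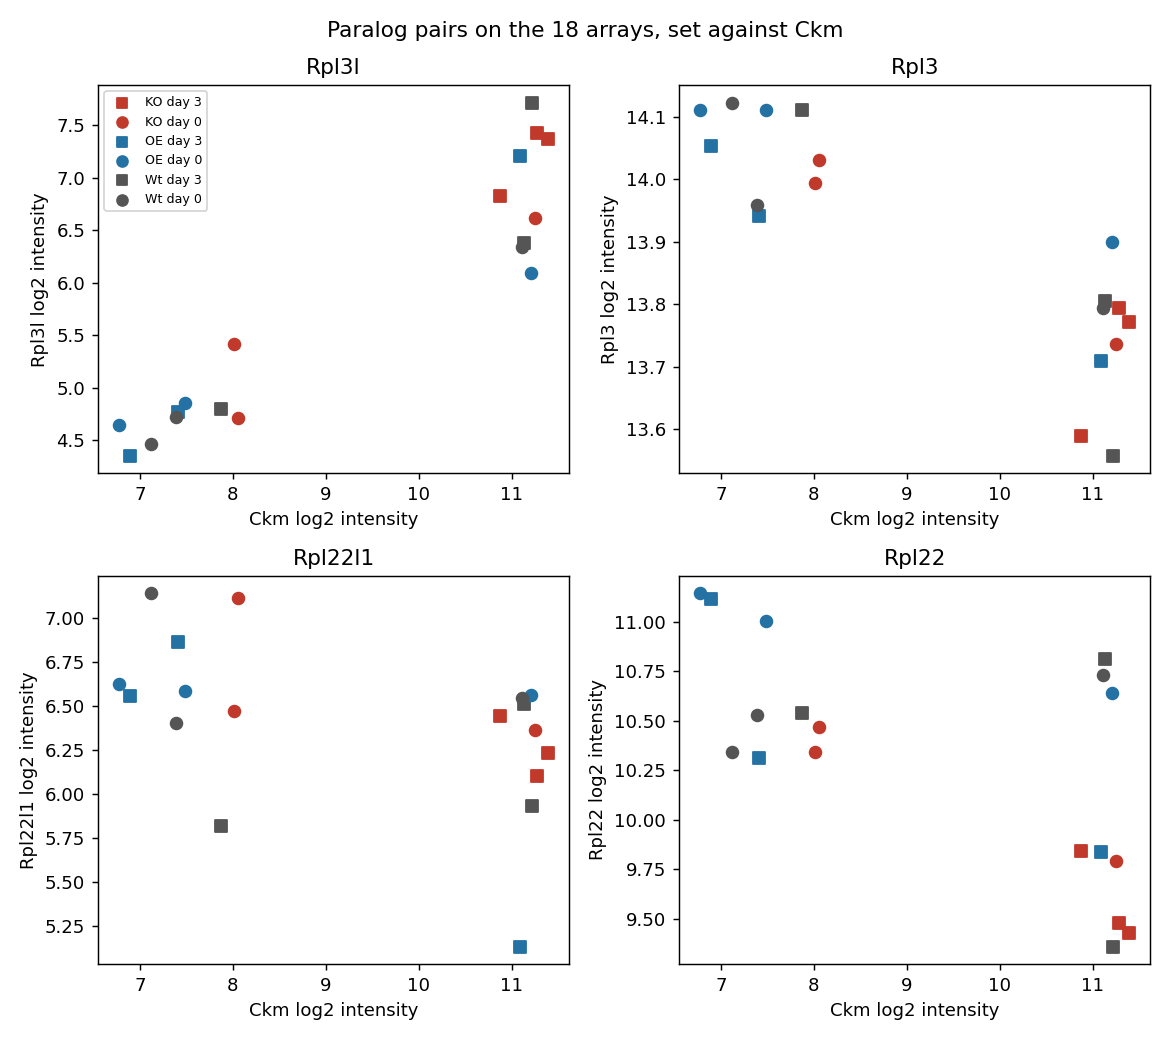
Log2 intensity of Rpl3l, Rpl3, Rpl22l1 and Rpl22 (y axes, each on its own scale) against log2 intensity of Ckm (x axes), 1 point per array, with colour for the virus label and shape for the day. At Ckm of 10.87 and above, Rpl3l lies at 6.10 to 7.72 and Rpl3 at 13.56 to 13.90, while Rpl22 splits into 9.36 to 9.85 and 10.64 to 10.81.

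Rpl22, an RNA-binding large-subunit protein (chromosome 4, 152324436 to 152334082), had log2 intensities of 9.43, 9.48 and 9.85 in KO day 3, 9.84, 11.11 and 10.31 in OE day 3, and 10.81, 10.54 and 9.36 in Wt day 3. At day 0 they were 9.79, 10.47 and 10.34 in KO, 11.01, 10.64 and 11.14 in OE, and 10.73, 10.53 and 10.34 in Wt. KO day 3 was low on all 3 arrays and overlapped Wt day 3 through Wt replicate 3. KO minus Wt at day 3 was -0.65 ± 0.36 (SE), with a limma adjusted p of 0.945. Rpl22 did not part with Ckm alone. On 6 of the Ckm-high arrays it was at 9.36 to 9.85, and on the other 3 (Wt replicate 1 of day 3 and of day 0, and OE replicate 2 of day 0) at 10.64 to 10.81, inside the 10.31 to 11.14 of the remaining arrays. The same 6 arrays had Eef1a2, the muscle and neuron form of elongation factor eEF1A, at 8.80 to 9.69, against at most 5.38 on the other 12. Eef1a1, the general form, read 14.50 to 14.78 on the 18 arrays, at or near the ceiling of 14.78, where differences are compressed.

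Rpl22l1, the paralog that can replace Rpl22, was detected on 18 arrays with values of 5.13 to 7.14. It was at 6.23, 6.10 and 6.44 in KO day 3, 5.13, 6.56 and 6.87 in OE day 3, and 6.51, 5.81 and 5.93 in Wt day 3, against 6.36, 7.12 and 6.47 in KO day 0, 6.59, 6.56 and 6.63 in OE day 0, and 6.55, 6.40 and 7.14 in Wt day 0. The lowest array was OE day 3 replicate 1, and all groups compared overlapped. Day 3 minus day 0 was -0.39 ± 0.36 (SE) in KO, -0.41 ± 0.36 in OE and -0.61 ± 0.36 in Wt, with limma adjusted p of 0.584, 1 and 0.90. Rps27l, a paralog of Rps27 that p53 induces in human cells, ranged from 12.96 to 14.00, and was at 13.48 to 14.00 on the arrays with low Ckm and 12.96 to 13.66 on the Ckm-high ones. Rps4l, a paralog of the X-linked Rps4x, ranged from 7.0 to 8.13, with 7 of its 9 highest arrays Ckm-high. Rps4x ran the other way, with 1 of its 9 highest arrays Ckm-high and a range of 13.37 to 14.20. Rpl36al, a retroposed paralog of Rpl36a, ranged from 12.93 to 13.55 and Rpl36a itself from 11.94 to 13.01. Rpl39, the parent of the undetected Rpl39l, ranged from 13.51 to 14.07.

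Rplp0 is the stalk base that carries Rplp1 and Rplp2. Its values were 8.94, 8.52 and 9.40 in KO day 3, 9.37, 10.23 and 9.90 in OE day 3, and 9.29, 9.74 and 8.96 in Wt day 3, against 9.30, 9.41 and 9.75 in KO day 0, 10.23, 9.26 and 9.99 in OE day 0, and 9.38, 10.16 and 10.04 in Wt day 0. It lay at 8.52 to 9.40 on all 9 Ckm-high arrays and at 9.41 to 10.23 on the others. Rplp2 ranged from 13.31 to 14.29 and Rplp1 from 14.59 to 14.78. Rps3a1, a protein of the small-subunit platform, was lowest in Wt day 3 replicate 2 (9.25) and highest in KO day 0 replicate 2 (10.58). Rpl13a, which in human cells also leaves the ribosome for an interferon-dependent complex that silences translation, was lowest in Wt day 0 replicate 1 (10.30) and highest in OE day 0 replicate 1 (11.53). Rpl29, a large-subunit protein, was lowest in KO day 3 replicate 3 (9.78) and Rpl34 in KO day 3 replicate 2 (12.12), and both were highest in OE day 0 replicate 1 (11.02 and 13.34). None of these 4 genes lay entirely to one side on the Ckm-high arrays.

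As a set, the members were dimmest on the Ckm-high arrays. The mean log2 intensity over 62 members ran from 11.50 (OE day 3 replicate 1) to 11.85 (OE day 0 replicate 1), a range of 0.35. It was 11.50 to 11.68 on the Ckm-high arrays and 11.69 to 11.85 on the others, with Wt day 3 replicates 1 (11.68) and 2 (11.69) next to each other. With the authors' processed values 6 of the 9 lowest arrays were Ckm-high, with cyclic loess 8, with scaling to a common median 7, and with the mean of all kept probes per gene 8. By label the mean was 11.53 ± 0.01 (SD, n = 3) in KO day 3, 11.70 ± 0.17 in OE day 3, 11.64 ± 0.08 in Wt day 3, 11.71 ± 0.11 in KO day 0, 11.77 ± 0.12 in OE day 0 and 11.76 ± 0.13 in Wt day 0. The KO day 3 arrays are all Ckm-high and lie at 11.52 to 11.54, and every other group mixes Ckm-high and other arrays.

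**Figure D4:**
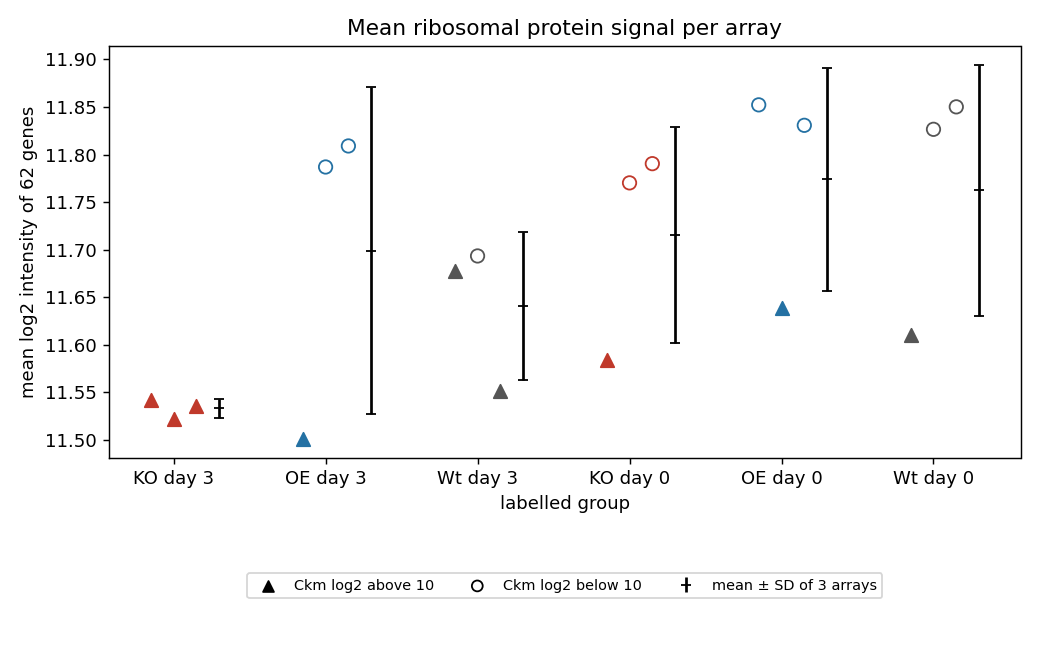
Mean log2 intensity over the 62 members (y axis) for each array, by labelled group (x axis, day 3 groups to the left of day 0 groups), with the mean and SD of 3 arrays beside the points. Filled triangles are the 9 arrays with Ckm at 10.87 or more, which lie at 11.50 to 11.68, and open circles are the other 9, at 11.69 to 11.85.

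Gene by gene, 12 of the 62 members lay entirely below on the Ckm-high arrays, where 9.95% of all genes did. They were the small-subunit genes Rps3, Rps6, Rps12, Rps13, Rps16 and Rps19, the large-subunit genes Rpl3, Rpl10a, Rpl12, Rpl28 and Rpl37, and Rplp0. The search found a TOP tract at 3 of the 11 with a RefSeq start (Rps6, Rpl12 and Rpl28, shown above), against 21 of 41 other members. It takes only tracts that begin within 5 bases of an annotated start, so a tract at another start would be missed. Whether the annotated starts are exact was not tested. Rps6, for example, was at 12.07 to 12.48 on the Ckm-high arrays and 12.84 to 13.25 on the others, and Rpl28 at 12.67 to 12.97 and 13.18 to 13.49. This separation holds for the probe that stood for each gene. On the other kept probes of Rps3, Rps12, Rps13, Rps19, Rpl28, Rpl37 and Rplp0 the Ckm-high arrays overlapped the rest. Those of Rpl37 and Rplp0 were close to background. The other Rpl28 probe read 6.23 on OE day 3 replicate 1, which is Ckm-high, and 6.09 on KO day 0 replicate 2, which is not. In a looser count, at least 7 of the 9 lowest arrays were Ckm-high for 34 members and for 25.6% of all genes. At least 7 of the 9 highest arrays were Ckm-high for 3 members (Rpl3l, Rpl6 and Rps4l) and for 24.3% of all genes. Of these, Rpl6 was detected on 10 arrays and is close to background. By the members alone the arrays held 1 set of 3 mutually closest arrays (KO day 3 replicates 1 and 2 with Wt day 3 replicate 3), which is also a set over all genes. The closest array by members lay in the same all-gene set for 11 of 18 arrays. It shared the label for 5 of 18 arrays by members and for 7 of 18 by all genes.

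The labelled comparisons asked what Cre recombinase or added GATA4 changed at each day, what 3 days in differentiation medium changed in each kind of cell, and whether that change differed from the Wt change. KO and OE are compared with the same Wt arrays. In limma fits to all 18 arrays, 0 members and 0 genes (0%) passed an adjusted p of 0.05 in each of the 9 comparisons. Leaving Rpl3l aside, the largest difference in the 7 comparisons between groups was -0.65, for Rpl22 in KO against Wt at day 3.

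**Figure D5:**
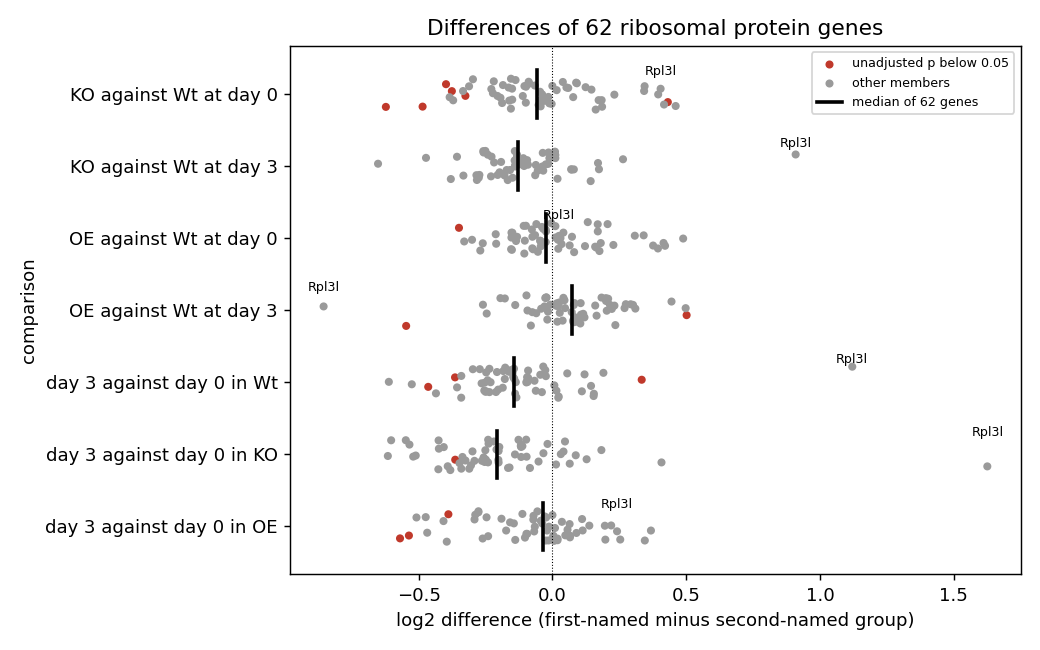
Log2 differences (x axis, first-named minus second-named group) of the 62 members in the 7 comparisons between labelled groups (y axis), 1 point per gene, with the member median as a bar and unadjusted p below 0.05 in red. In KO, day 3 against day 0 has the lowest median (-0.21), and Rpl3l lies apart from the other members at 1.63.

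Day 3 against day 0 in KO gave the lowest member median, -0.21 with 10 members higher and 52 lower, where the median over all genes was -0.01. The member median was -0.10 in the authors' processed values and -0.12 with median scaling. Below an unadjusted p of 0.05 there was 1 member, against 8.32% of all genes. It was Rps25, a small-subunit protein used by viral internal ribosome entry sites, at 11.88, 11.91 and 11.68 in KO day 3 and 12.08, 12.22 and 12.26 in KO day 0. The groups did not overlap, and the difference was -0.36 ± 0.16 (SE, limma adjusted p = 0.488). Rpl19, of the large subunit, was at 11.38, 11.42 and 11.46 in KO day 3 and 11.66, 12.16 and 11.97 in KO day 0, a difference of -0.51 ± 0.24 (limma adjusted p = 0.488). The large-subunit median was -0.21 and the small-subunit median -0.22.

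In Wt, day 3 against day 0 gave a member median of -0.15 with 13 members higher and 49 lower, and an all-gene median of -0.01. The member median came to -0.076 when Wt day 3 replicate 3 was left out, to -0.22 when replicate 2 of that group was, to -0.074 in the authors' processed values and to -0.24 with array weights. Below an unadjusted p of 0.05 there were 3 members, against 3.99% of all genes. Rps26, whose protein lies at the messenger RNA exit, was at 13.01, 12.87 and 12.73 in Wt day 3 and 13.07, 13.49 and 13.44 in Wt day 0, without overlap, a difference of -0.46 ± 0.20 (SE, limma adjusted p = 0.90). Rps25 differed by -0.36 ± 0.16 with overlapping arrays (limma adjusted p = 0.90), and Rps19bp1 is given below. In OE, the member median was -0.03 with 25 higher and 37 lower, the all-gene median was 0.02, and 3 members were below an unadjusted p of 0.05, against 4.57% of all genes. Rpl29 was at 10.12, 10.32 and 10.55 in OE day 3 and 11.02, 10.68 and 11.01 in OE day 0, without overlap, a difference of -0.57 ± 0.26 (limma adjusted p = 1). The other kept Rpl29 probe overlapped, at 5.64, 5.92 and 5.57 in OE day 3 and 5.73, 5.62 and 5.65 in OE day 0. Rpl32 differed by -0.54 ± 0.24 with overlap (limma adjusted p = 1). The OE median was 0.04 without OE day 3 replicate 1, the single Ckm-high array of its group, and -0.11 without OE day 0 replicate 2.

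KO against Wt at day 0 gave a median of -0.06 with 21 members higher and 41 lower, and an all-gene median of -0.02. The member median came to 0.03 when KO day 0 replicate 1 was left out, and to -0.14 when Wt day 0 replicate 1 was. Below an unadjusted p of 0.05 there were 6 members, against 6.4% of all genes. Rpl21, of the large subunit, was at 7.08, 7.20 and 7.27 in KO day 0 and 7.50, 8.15 and 7.77 in Wt day 0, without overlap. The difference was -0.62 ± 0.20 (SE, limma adjusted p = 0.644). The other 2 kept Rpl21 probes also had all KO day 0 arrays below all Wt day 0 arrays, at 6.66, 6.66 and 6.66 against 7.47, 7.60 and 7.35, and at 6.89, 6.76 and 6.81 against 6.92, 7.41 and 7.33. Rpl30, a large-subunit protein that controls its own splicing in yeast, was at 10.46, 10.48 and 10.36 in KO day 0 and 10.59, 11.10 and 10.80 in Wt day 0, a difference of -0.40 ± 0.15 (limma adjusted p = 0.713). Rpl36al (-0.38), Rps26 (-0.49) and Rps29 (-0.33) were the other members lower in KO, with limma adjusted p of 0.732 to 0.773. Of the members higher in KO, Rps19bp1 and Rpl14 had the lowest p, and Rpl14 is close to background.

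KO against Wt at day 3 gave a median of -0.13 with 13 members higher and 49 lower, and an all-gene median of -0.01. The member median came to -0.078 when Wt day 3 replicate 2 was left out, to -0.18 when replicate 3 of that group was, and to -0.046 with median scaling. Below an unadjusted p of 0.05 there were 0 members, against 2.29% of all genes. Rpl34, a large-subunit protein, came closest, at 12.22, 12.12 and 12.15 in KO day 3 and 13.19, 12.59 and 12.13 in Wt day 3. These overlap through Wt replicate 3, and the difference was -0.47 ± 0.25 (SE, limma adjusted p = 0.945). The difference between the KO and the Wt change over days had a median of -0.07, which was 0.03 with median scaling and 0.01 without Wt day 0 replicate 1. It had 1 member (Rps19bp1) below an unadjusted p of 0.05, against 3.58% of all genes.

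OE against Wt at day 0 gave a median of -0.02 with 28 members higher and 34 lower, and an all-gene median of -0.02. The member median turned to 0.02 with cyclic loess, 0.11 with median scaling and 0.02 with the mean of all kept probes per gene. It came to 0.03 when OE day 0 replicate 2 was left out, and to -0.12 when Wt day 0 replicate 1 was. Below an unadjusted p of 0.05 there was 1 member, against 5.13% of all genes. It was Rpl36al, at 12.99, 13.17 and 13.03 in OE day 0 and 13.48, 13.55 and 13.21 in Wt day 0, without overlap and by -0.35 ± 0.15 (SE, limma adjusted p = 0.953). OE against Wt at day 3 gave a median of 0.07 with 42 members higher and 20 lower, which turned to -0.02 in the authors' processed values and -0.01 with median scaling, where the all-gene median was 0.01 with the main method. The member median came to -0.0018 when Wt day 3 replicate 3 was left out, and to 0.17 when OE day 3 replicate 1 was. Below an unadjusted p of 0.05 there were 2 members, against 3.95% of all genes. Rps26 was at 12.91, 13.76 and 13.44 in OE day 3 and 13.01, 12.87 and 12.73 in Wt day 3, with overlap and by 0.50 ± 0.20 (limma adjusted p = 0.915). Rpl4, which lines the exit tunnel for the new protein, differed by 0.45 ± 0.21 (limma adjusted p = 0.915). The difference between the OE and the Wt change had a median of 0.07, which was -0.01 in the authors' processed values and -0.09 with median scaling, and 1 member (Rps19bp1) below an unadjusted p of 0.05, against 6.17% of all genes.

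The lowest p of any member in 4 of the 9 comparisons belonged to Rps19bp1 (chromosome 15, 80260614 to 80264306), known in human cells as an activator of the deacetylase SIRT1. It was at 7.12, 7.51 and 7.21 in KO day 3, 6.92, 6.69 and 6.91 in OE day 3, and 7.28, 7.46 and 7.42 in Wt day 3. At day 0 it was at 7.54, 7.48 and 7.43 in KO, 7.15, 7.53 and 7.0 in OE, and 7.02, 7.06 and 7.07 in Wt. OE day 3 was the lowest group and lay below Wt day 3 without overlap, by -0.55 ± 0.16 (SE, limma adjusted p = 0.915). KO lay above Wt at day 0 without overlap, by 0.43 ± 0.16 (limma adjusted p = 0.713). Day 3 minus day 0 was 0.33 ± 0.16 in Wt and -0.39 ± 0.16 in OE, in either case without overlap. Its single probe gave 160 to 304 intensity units.

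Genes of neighbouring steps were read from lists chosen for this work. None of their members passed an adjusted p of 0.05 in any of the 9 limma comparisons. Of 50 ribosome biogenesis genes, which make and assemble the ribosomal RNA and its proteins in the nucleolus, 43 were measured. Their mean log2 intensity was 8.41 to 8.49 on the Ckm-high arrays and 8.89 to 9.12 on the others, and 18 of the 43 lay entirely below on the Ckm-high arrays, against 9.95% of all genes. Rcl1, which acts in the cleavage of the pre-ribosomal RNA, had the widest range, at 7.93 to 8.79 on the Ckm-high arrays and 9.54 to 10.25 on the others. Nop58, a core protein of the box C/D particles that guide methylation of ribosomal RNA, ranged from 10.30 to 12.44. Day 3 against day 0 in KO had 5 biogenesis genes higher and 38 lower with a median of -0.40, of which 5 were below an unadjusted p of 0.05, against 8.32% of all genes. OE against Wt at day 3 had 39 higher and 4 lower with a median of 0.19, where 51.4% of all genes were higher and their median was 0.01. Of these day 3 arrays, OE replicate 1 and Wt replicates 1 and 3 were Ckm-high. In OE against Wt at day 0, 12 biogenesis genes were higher and 31 lower, with a median of -0.15. There 46.6% of all genes were higher, with a median of -0.02.

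Translation factors whose messages carry TOP tracts were measured for 18 of 22, with a median of -0.19 for day 3 against day 0 in KO (5 higher, 13 lower). Pabpc1, the poly(A) binding protein, ranged from 10.72 to 12.61, and Hnrnpa1, a splicing factor with a TOP message, from 9.76 to 11.53. Of 35 genes of cap binding and initiation control 27 were measured, with a median of -0.04 in that comparison. Eif2ak2, the interferon-induced kinase PKR that blocks initiation, ranged from 7.33 to 10.92. It was highest in Wt day 3 replicate 2 (10.92) and KO day 0 replicates 2 and 3 (10.67 and 10.62), the arrays on which the interferon-induced Usp18 was at 12.40 to 12.52. Of 76 mitochondrial ribosomal protein genes, which serve the organelle's own ribosome, 72 were measured, with a median of -0.03 in that comparison (30 higher, 42 lower). Mrps6 ranged from 9.51 to 12.12 and Mrpl16 from 8.02 to 9.59.

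Ribosomal protein genes have many near-identical processed pseudogenes, and a probe can read more than 1 copy. For 18 members more than 1 probe was kept. Their probes gave differences of both signs for 4 to 11 of these 18 genes, depending on the comparison. Rps23rg1, Rps4l and Rpl36al were read by 1 kept probe each, and which copy these probes read was not tested. Precision is limited by the number of arrays.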

How the data were processed

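Per the labels, total RNA was extracted with RNeasy columns, labelled with biotin by the TotalPrep kit and read on 18 bead arrays. The deposited table used here gives, per the file headers, the average bead intensity of 45281 probes on every array with its detection p-value. Its intensities are linear and not background-subtracted. The authors also deposited processed intensities, by a normalisation not given in the sources used here. Groups and replicate numbers came from the titles, which also name the columns.

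Background was corrected and arrays were quantile-normalised with neqc of limma 3.58.1 in R 4.3.3 (offset 16, background taken from the detection p-values), giving log2 intensities. Probes detected at p below 0.05 on at least 3 arrays (22365) were kept. Symbols came from the platform annotation, updated through gene identifiers to RefSeq (GRCm38.p6). Of all probes 34885 had 1 symbol, 18 several and 10378 none, and all 62 member symbols were unchanged. A model with 1 mean per group was fitted to all 18 arrays, with Benjamini-Hochberg adjustment over 11921 genes. Fold changes are differences of log2 values. In a simulation of KO against Wt at day 0 with 11921 genes, 0 were called with no change, 41% of 100 genes changed by a log2 of 1 and 86% of 100 changed by 2. It drew every gene independently from a normal distribution with its within-label SD. The split of labels into Ckm-high and other arrays, which many genes share, was not simulated, so these rates need not hold here. Same-numbered arrays of KO and Wt at day 0 deviated together (correlations of 0.61, 0.37 and 0.52), and other pairs of groups did not do so throughout (-0.73 to 0.69), with the numbers taken from the titles.

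The members and lists were chosen with earlier results of these data known. The naming rules took Rpl3l and the paralogs with their parents, and the 8 members with the widest and the 8 with the narrowest range. They also took the 5 with the highest and the 5 with the lowest mean. In each direction of a comparison they took the 2 with the lowest p, and not every member so taken is printed. Rps19bp1 and the 2 widest genes of each list were named too. The members of the Ckm-high count and those printed as examples of TOP tracts were named after their values were seen, as was Rpl35, which no rule names. The alternatives were other background corrections and normalisations, the authors' values, other filters and probe rules, array weights, a replicate block, and leaving out 1 array at a time. Alternatives restricted to members detected on all arrays, or without paralogs, were chosen after seeing the data.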

Additional observations from a re-analysis of the deposited data

Results flagged for a closer look

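Rps19bp1 was set apart because all its OE day 3 arrays (6.92, 6.69 and 6.91) lay below all OE day 0 arrays (7.15, 7.53 and 7.0), while all its Wt day 3 arrays (7.28, 7.46 and 7.42) lay above all Wt day 0 arrays (7.02, 7.06 and 7.07). The difference between the OE and the Wt change over days was -0.72 ± 0.22 (SE) on the log2 scale, with a limma adjusted p of 0.797. The pattern of opposite changes without overlap was met by 82 of 11921 genes (0.688%) and by 1 of the 62 members. Rps19bp1 encodes no ribosomal protein.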

How the results depend on the processing

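No member passed an adjusted p of 0.05 under the alternatives run, with the exception of array weights. For KO against Wt at day 0 these gave 3 members. For day 3 against day 0 they gave 2 in Wt and 33 of 62 in KO. Under array weights up to 6266 of the 11921 genes passed in a comparison. The all-gene count of each comparison is not given here, so these member counts are not read as particular to the members. With array weights the Rpl3l difference between day 3 and day 0 was 2.04 in both Wt and KO, and its KO minus Wt change was -0.00051. The cause was not tested. With the replicate number as a block, 0 members passed in each comparison. Members below an unadjusted p of 0.05 under the block were 1 in place of 3 (day 3 against day 0 in Wt), 2 in place of 1 (in KO) and 2 in place of 3 (in OE). The design is balanced, so the block leaves every median as it was. Under the alternatives that keep all 18 arrays, array weights included, the member median for day 3 against day 0 ran from -0.26 to -0.10 in KO and from -0.24 to -0.074 in Wt. Leaving out 1 array at a time, it ran from -0.29 to -0.17 in KO and from -0.22 to -0.076 in Wt. The median of all genes on an array spanned 0.52 over the 18 arrays under median scaling and 0.13 under cyclic loess, against 0.08 with the main method. Under median scaling the member median was 0.11 for OE against Wt at day 0, -0.19 for day 3 against day 0 in OE and -0.094 for the OE minus Wt change, and the member mean had a range of 0.61. The Rpl3l range was 2.04 with normexp fitted to the signal, 1.57 with no background correction and 1.46 in the authors' values. Rpl3l in OE against Wt at day 0 was -0.00063, -0.0061 and -0.027 under these, and -0.096 with cyclic loess. Leaving out 1 array at a time, its difference ran from -0.11 to 0.99 (KO against Wt at day 0), -0.42 to 0.61 (OE against Wt at day 0), -0.64 to 0.79 (day 3 against day 0 in OE) and -0.25 to 1.21 (KO minus Wt change). The member median of the OE minus Wt change ran from 0.010 to 0.20. Without KO day 0 replicate 1, 10 genes passed, with 0 members among them. A filter on detection on all 18 arrays leaves out Rpl3l. Members near background (Rps20, Rps23rg1, Rpsa, Rpl14 and Rpl6) limit what their values can show.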
